A study of Rattus norvegicus with 111 samples.

Results

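Fatty acid synthesis was followed in rat liver through 5 genes: Acly (ENSRNOG00000016924), Acaca (ENSRNOG00000034013), Fasn (ENSRNOG00000045636), Scd (ENSRNOG00000013552) and Srebf1 (ENSRNOG00000003463). They were chosen by name as the central enzymes of the pathway and its transcriptional regulator. All 5 were among the 20311 genes of both count tables, and all 5 passed the filter on low counts in every fit. The samples came from time-mated Sprague-Dawley dams, bought at about 11 to 12 weeks of age, that received 1 of 2 perfluoroalkyl ether acids by mouth from gestational day 18 to 22. PFO5DoA is the longer homologue and has 1 more difluoromethoxy unit than PFO4DA. Controls of each chemical received the vehicle of 0.5% Tween-80 that all treated dams received too, and livers of dams and fetuses were taken on gestational day 22. The labels give no genetic change for any group.

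The pathway turns surplus carbohydrate into fat. Cytosolic citrate is cleaved to acetyl-CoA, acetyl-CoA is carboxylated to malonyl-CoA, and malonyl-CoA is built into palmitate, which can then be desaturated. In liver the pathway is known to respond to feeding and insulin, largely through SREBP-1c, a product of Srebf1 that raises transcription of the synthesis enzymes. Liver X receptors and PPAR-alpha are also known to act on Scd.

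In maternal liver of PFO5DoA-treated dams, the desaturase Scd rose from 1 to 30 mg/kg per day and was 9.27-fold above controls at 10 mg/kg. The other enzymes went the other way at 30 mg/kg. Acaca, Acly and Fasn all fell, by 1.55, 1.77 and 2.60 on the log2 scale, while Scd was still above controls. In fetal liver of the same dams Scd and Acaca rose from 1 to 10 mg/kg, and neither differed detectably from controls at 30 mg/kg. PFO4DA raised Scd in fetal liver from 10 mg/kg and in maternal liver at 62.5 mg/kg alone. Fetal Acaca and Fasn were also called with PFO4DA at 30 and 62.5 mg/kg, and fetal Acly at 30 mg/kg. The calls of these enzymes at 30 mg/kg, and the maternal Scd call, were lost when single dams were left out. With PFO4DA no difference between the livers in the dose effect was called. Srebf1 mRNA passed the test at no dose of either chemical in either liver. Its slope over all PFO4DA doses in fetal liver did pass.

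Doses per day, written here as mg/kg, were 0.3, 1, 3, 10 and 30 mg/kg for both chemicals, and 62.5 mg/kg for PFO4DA alone. Dams given 62.5 mg/kg PFO5DoA were euthanized early and are not part of the data. PFO5DoA was represented in maternal liver by 5 control dams and by 3, 3, 4, 4 and 4 dams at rising dose, and in fetal liver by 5 control dams and 3, 3, 4, 4 and 3 dams. PFO4DA had 6 control dams and 4 dams at each dose. A further PFO5DoA group of 0.1 mg/kg had 2 dams and entered no test, as in the study. Per the labels, dams at 30 mg/kg PFO5DoA weighed less than controls by day 22, and 1 of them showed apparent fetal toxicity. The labels do not say which dam that was. The part of body weight in the results at that dose was not tested.

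The deposited columns name the dam but not the liver. For each of the 54 dams with 2 libraries, the library whose log2(CPM + 1) values correlated better across genes with the sole library of dam 2286, labelled maternal, was taken as maternal and the other as fetal. CPM is the count scaled to a common library total. Correlations were 0.943 to 0.988 for the libraries called maternal and 0.861 to 0.923 for those called fetal, and the smallest difference within a dam was 0.0524. All 54 dams were assigned the same way when the 5 genes were left out. The assignment therefore rests on measured values, and the difference in level between the livers is described without a test. Control dam 2279 was dropped because 1 of its libraries held 45505 counts. The 109 libraries used held 7132999 to 15254939 counts each. No pair of the same chemical, liver and dose agreed within sampling noise, and other pairs were not compared. Each library is a single piece of liver, and fewer cells of a type cannot be told apart from less RNA per cell. The dams of each chemical fall into 2 runs of consecutive identifiers, which the labels do not call a batch. No run holds dams of both chemicals, so chemical and run cannot be told apart. The 30 mg/kg PFO5DoA and 62.5 mg/kg PFO4DA groups lie wholly in the second run, and the 0.3 and 1 mg/kg PFO5DoA groups wholly in the first. Values within a single run, given beside some results, are an alternative chosen after seeing the data. They rest on few dams. PFO5DoA had 3 control dams in the first run and 2 in the second. It had 2 dams per run at 3 and at 10 mg/kg. PFO4DA had 3 control dams per run and 2 dams per run at 30 mg/kg. With so few dams, a call lost or made within a run decides little.

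Promoter sequence is shown for the genes with an entry in the RefSeq table (build GRCr8), since Scd was called in both livers with both chemicals and Srebf1 was called at no single dose; Acly is the other gene with an entry. Each window holds the 250 bases before an annotated start, written 5′ to 3′ along the gene. Capitals mark matches on either strand to the letters of 4 motifs that are textbook elements of lipogenic promoters: TCACNCCAC (sterol regulatory element), CCAAT (NF-Y box), GGGCGG (Sp1 GC box) and CACGTG (E-box). These letters occur in 0.974%, 34%, 30.5% and 5.59% of all 33469 promoter windows of this length.
Scd, chr1:253231732-253231981, minus strand: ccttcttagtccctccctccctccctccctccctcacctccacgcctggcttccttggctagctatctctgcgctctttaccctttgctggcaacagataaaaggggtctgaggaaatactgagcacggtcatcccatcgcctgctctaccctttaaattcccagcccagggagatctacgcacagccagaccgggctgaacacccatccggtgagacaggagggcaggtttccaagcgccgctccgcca
Srebf1, first start, chr10:45529165-45529414, minus strand: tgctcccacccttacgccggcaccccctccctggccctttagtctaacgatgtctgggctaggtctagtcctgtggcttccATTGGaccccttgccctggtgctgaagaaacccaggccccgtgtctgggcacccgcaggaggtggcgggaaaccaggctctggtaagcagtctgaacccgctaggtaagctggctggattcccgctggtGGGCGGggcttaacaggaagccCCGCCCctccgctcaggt
Srebf1, second start, chr10:45519011-45519260, minus strand: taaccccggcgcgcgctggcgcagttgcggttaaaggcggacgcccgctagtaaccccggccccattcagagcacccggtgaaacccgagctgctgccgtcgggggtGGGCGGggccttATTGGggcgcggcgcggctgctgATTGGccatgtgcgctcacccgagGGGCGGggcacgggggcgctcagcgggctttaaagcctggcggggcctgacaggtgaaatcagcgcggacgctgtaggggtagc
Acly, chr10:85963632-85963881, minus strand: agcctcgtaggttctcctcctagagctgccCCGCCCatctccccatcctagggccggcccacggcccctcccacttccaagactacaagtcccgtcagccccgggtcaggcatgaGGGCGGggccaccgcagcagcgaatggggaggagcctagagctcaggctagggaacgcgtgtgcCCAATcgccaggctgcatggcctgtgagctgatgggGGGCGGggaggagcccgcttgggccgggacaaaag
The Scd window held none of the 4 motifs. The first Srebf1 window held 1 CCAAT and 2 GGGCGG matches, the second held 2 and 2, and the Acly window held 1 and 3. No window held TCACNCCAC or CACGTG. A match describes letters only, and its absence says that these letters are not in this window.

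The levels given for single libraries are CPM scaled by TMM factors (trimmed mean of M values, a correction for library composition). They can be compared between libraries for 1 gene but not between genes, since the assay counts a probe and its efficiency is unknown. Depth was ample for 4 genes. Counts per library were 220 to 3916 for Acaca, 638 to 7782 for Acly, 78 to 11888 for Scd and 180 to 2397 for Srebf1. Fasn had 1 to 53 counts per library, so its values carry the largest counting error and small differences in it were not detectable.

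In the 11 control dams with both livers, unscaled CPM of Scd was lower in fetal than in maternal liver in every dam, with a fetal to maternal ratio of 0.0466 to 0.423 and a median of 0.174. Acly was higher in fetal liver in 10 of the 11 dams (median ratio 1.54) and Acaca in 9 of the 11 (median ratio 1.46). Fasn was higher in fetal liver in 3 dams (median ratio 0.692) and Srebf1 in 4 (median ratio 0.579). The ranges of the ratio spanned 1 for Fasn, Acaca, Acly and Srebf1.

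Each dose was tested against the controls of its chemical and liver with edgeR's quasi-likelihood test. A gene was called at a Benjamini-Hochberg adjusted p under 0.05 over all genes of the fit, and doses of a chemical share their controls. In maternal liver of PFO5DoA dams 7 of the 25 tests of the 5 genes were called. Of all genes tested there, 0%, 0.452%, 2.65%, 14% and 39.8% were called at 0.3, 1, 3, 10 and 30 mg/kg. In fetal liver of PFO5DoA dams 6 of 25 tests were called, against 0.113%, 2.4%, 7.08%, 14.7% and 29.9% of all genes. Maternal liver of PFO4DA dams gave 1 call in 30 tests. The shares of all genes called there from 0.3 to 62.5 mg/kg were 0%, 0%, 0%, 0.00974%, 0.633% and 2.46%. Fetal liver of PFO4DA dams gave 8 calls in 30 tests, and the shares of all genes were 0%, 0%, 0.304%, 2.64%, 6.44% and 10.6%. Where no gene was called, 562 of 10615 genes had an unadjusted p under 0.05 in maternal liver at 0.3 mg/kg PFO5DoA. For PFO4DA, 269, 221 and 285 of 10263 genes had one in maternal liver at 0.3, 1 and 3 mg/kg, and 1125 and 876 of 11172 in fetal liver at 0.3 and 1 mg/kg. The share of all genes called was largest with PFO5DoA at 30 mg/kg, and calls of 4 of the 5 genes in maternal liver there stand against a background of 39.8%.

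**Figure D1:**
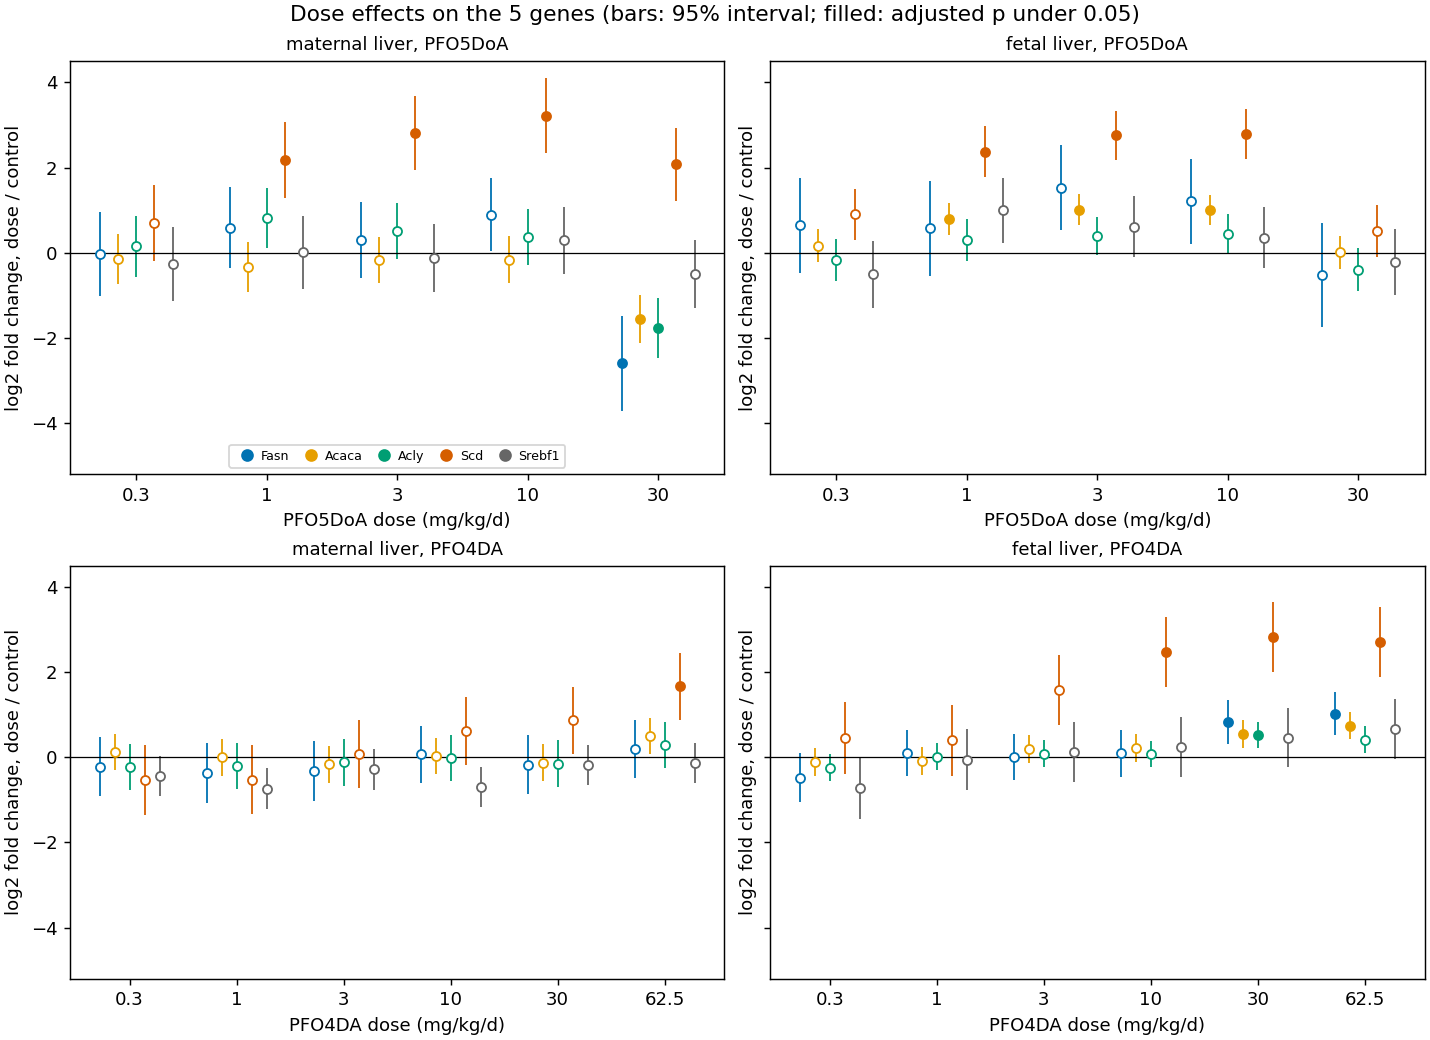
Log2 fold change against controls with its 95% interval (vertical axis) for each of the 5 genes by dose in mg/kg (horizontal axis), for 2 chemicals and 2 livers, with filled points for called tests. Scd lies highest of the 5 in every panel from 10 mg/kg on, and Acaca, Acly and Fasn lie below 0 in maternal liver at 30 mg/kg PFO5DoA.

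Scd encodes stearoyl-CoA desaturase, which makes monounsaturated fatty acids. In maternal liver, PFO5DoA control dams 2263, 2264, 2265, 2278 and 2280 had 40.1, 102, 110, 149 and 65.0 scaled CPM. At 0.3 mg/kg the 3 dams had 221, 135 and 99.5, which overlapped the controls. At 1 mg/kg they had 269, 365 and 625, at 3 mg/kg 421, 775, 760 and 656, and at 10 mg/kg 642, 1106, 655 and 1059. Every dam from 1 to 10 mg/kg lay above every control. Dams 2285, 2286, 2287 and 2288 at 30 mg/kg had 351, 722, 353 and 140, and dam 2288 fell within the control range. The 2 dams at 0.1 mg/kg, which were not tested, had 208 and 172, both above all controls.

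Group means of maternal Scd were 93.2 ± 42.1 (SD, n = 5) in PFO5DoA controls, 419 ± 184 (n = 3) at 1 mg/kg, 653 ± 164 (n = 4) at 3 mg/kg, 866 ± 251 (n = 4) at 10 mg/kg and 391 ± 242 (n = 4) at 30 mg/kg. The log2 fold change was 0.70 at 0.3 mg/kg (adjusted p = 0.894). It was 2.17 at 1 mg/kg (adjusted p = 0.0217), 2.81 at 3 mg/kg (adjusted p = 0.000211), 3.21 at 10 mg/kg (adjusted p = 2.3e-05) and 2.07 at 30 mg/kg (adjusted p = 0.000445). The call at 1 mg/kg was lost when dam 2263, 2272, 2273 or 2280 was left out, with adjusted p up to 0.175. Within the second run of dams alone, the value at 30 mg/kg was 1.86 (adjusted p = 0.0663), that at 10 mg/kg 3.00 (adjusted p = 0.0849) and that at 3 mg/kg 2.72 (adjusted p = 0.258). Within the first run the value at 1 mg/kg was 2.33 (adjusted p = 0.111). Over all dams with the run as a covariate, the values at 10 and 30 mg/kg were 3.21 and 1.96. Both were called (adjusted p = 4.3e-05 and 0.00323).

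In fetal liver Scd started lower, at 22.2, 17.1, 20.1, 23.5 and 14.1 scaled CPM in the 5 PFO5DoA control dams. The 3 dams at 0.3 mg/kg had 27.0, 35.0 and 47.4, all above the controls, but the change of 0.90 was not called (adjusted p = 1.00). Levels were 57.0, 117 and 130 at 1 mg/kg, 153, 118, 108 and 151 at 3 mg/kg and 138, 102, 158 and 146 at 10 mg/kg. None of these overlapped the controls. The changes were 2.37, 2.75 and 2.79 (adjusted p = 2.38e-05, 7.57e-07 and 3.35e-07). Dams 2285, 2287 and 2288 at 30 mg/kg had 44.2, 25.0 and 14.5, overlapping the controls, and the change was 0.50 (adjusted p = 0.211). It turned on single dams: without dam 2288 it was 0.83 and was called (adjusted p = 0.0452), and without dam 2285 it was 0.02 (adjusted p = 0.97).

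**Figure D2:**
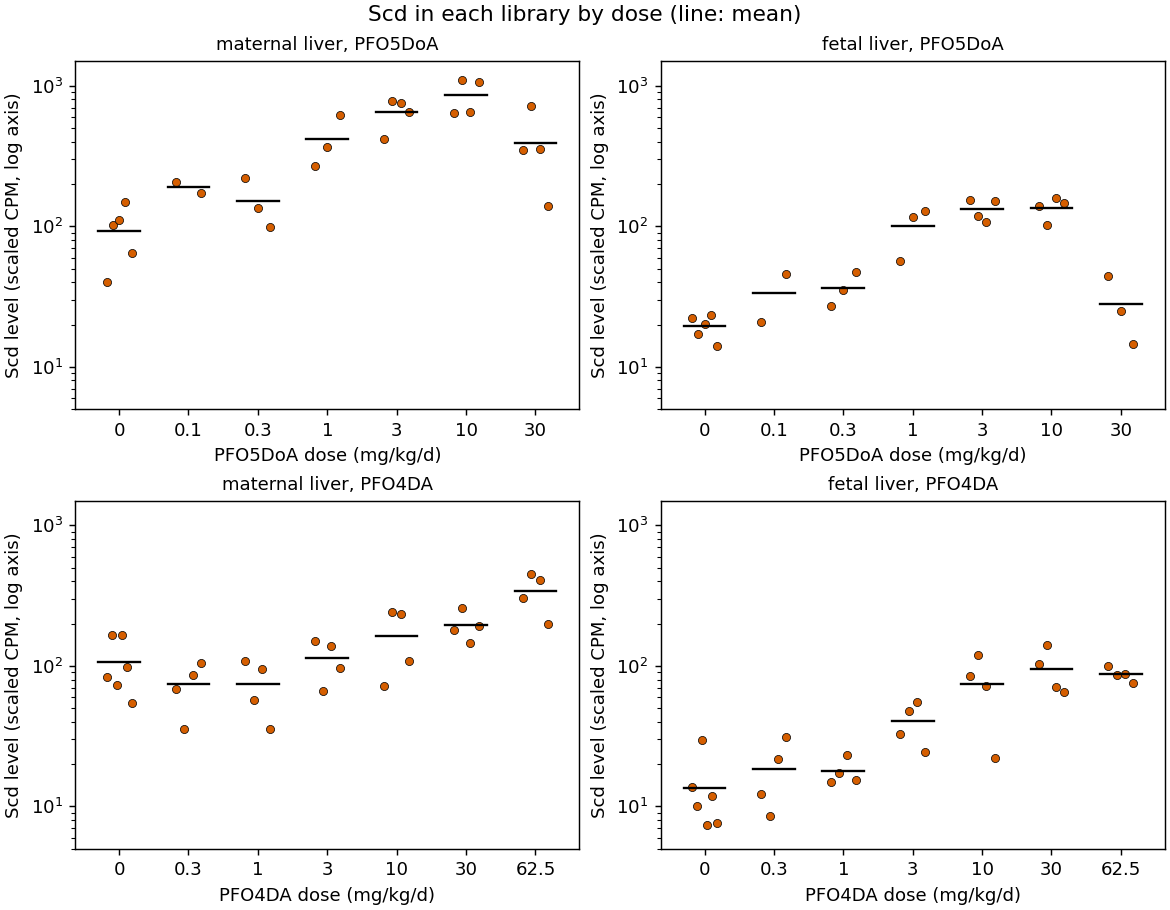
Scd level in scaled CPM on a log axis (vertical) by dose in mg/kg (horizontal) for each chemical and liver, with a point for each library and a line for the group mean. In fetal liver at 30 mg/kg PFO5DoA the 3 libraries, 14.5 to 44.2, lie below all libraries of 3 and 10 mg/kg and overlap the controls.

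PFO4DA moved Scd less in the dams. Its 6 maternal controls ran from 54.7 to 167 scaled CPM with a median of 90.6. The 4 dams at 10 mg/kg had 71.6, 240, 235 and 109 and those at 30 mg/kg had 181, 260, 145 and 193, overlapping the controls at both doses, and neither change passed (0.62, adjusted p = 0.714, and 0.87, adjusted p = 0.651). At 62.5 mg/kg they had 306, 448, 406 and 199, all above the controls, with a change of 1.67 (adjusted p = 0.0146). That call was lost without dam 2320 or dam 2321, with adjusted p up to 0.0646. Within the second run of dams the value was 1.66 (adjusted p = 0.175). Over all dams with the run as a covariate it was 1.72 and was called (adjusted p = 0.0254).

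Fetal Scd in PFO4DA controls ran from 7.35 to 29.9 scaled CPM with a median of 11.0. At 3 mg/kg the 4 dams had 32.9, 48.0, 55.7 and 24.3, and the change of 1.58 was not called (adjusted p = 0.112), though it was without dam 2295 or 2316 (adjusted p as low as 0.01). At 10 mg/kg they had 84.6, 119, 72.1 and 22.2, of which dam 2316 lay within the control range. At 30 mg/kg they had 104, 142, 71.0 and 64.7 and at 62.5 mg/kg 101, 86.3, 88.3 and 75.2, without overlap with the controls. Scd rose by 2.47, 2.83 and 2.7 at these 3 doses (adjusted p = 0.000288, 2.12e-05 and 2.08e-05). The value at 62.5 mg/kg was 3.28 within the second run of dams (adjusted p = 2.3e-07). Means were 13.4 ± 8.45 (SD, n = 6) in controls and 87.6 ± 10.4 (n = 4) at 62.5 mg/kg.

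Acly, ATP citrate lyase, supplies cytosolic acetyl-CoA. In maternal liver its 5 PFO5DoA controls had 199, 170, 313, 266 and 195 scaled CPM. The 4 dams at 10 mg/kg had 174, 336, 400 and 273, spread across the controls and beyond. The 4 dams at 30 mg/kg had 65.3, 77.8, 63.7 and 61.4, all below the lowest control, with a mean of 67.1 ± 7.35 (SD, n = 4) against 229 ± 59.0 (n = 5). The change of -1.77, a 3.41-fold fall, was called (adjusted p = 0.000272). Within the second run alone it was -1.79 (adjusted p = 8.94e-05). At 0.3 to 10 mg/kg the maternal changes ran from 0.15 to 0.82 and none passed.

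Fetal Acly had no call with PFO5DoA. Controls spanned 213 to 458 scaled CPM with a median of 408, and dams at 30 mg/kg had 395, 226 and 248, a change of -0.40 (adjusted p = 0.231). With PFO4DA, fetal Acly was 496, 686, 490 and 463 at 30 mg/kg against 304 to 519 (median 350.4) in controls. The change of 0.51 passed (adjusted p = 0.0325) although 3 of the 4 dams lay within the control range. It was lost without dam 2294, 2295, 2307, 2309, 2310 or 2317, with adjusted p up to 0.183, and within each run of dams (0.65, adjusted p = 0.257, and 0.39, adjusted p = 0.365). The call was kept with the run of dams as a covariate (0.52, adjusted p = 0.0318). At 62.5 mg/kg the change was 0.42 (adjusted p = 0.0741), and 0.53 without control dam 2293 (adjusted p = 0.0119). In maternal liver PFO4DA gave changes of -0.23 to 0.29 and no call.

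Acaca, acetyl-CoA carboxylase alpha, makes malonyl-CoA, the committed step of the pathway. In maternal liver the 5 PFO5DoA controls had 177, 89.9, 117, 101 and 116 scaled CPM, and dams at 30 mg/kg had 48.9, 60.8, 35.3 and 19.1. These did not overlap, and Acaca fell by 1.55 on the log2 scale, or 2.93-fold (adjusted p = 0.000101). Within the second run it was -1.41 (adjusted p = 0.0167). The maternal changes at 0.3 to 10 mg/kg ran from -0.34 to -0.14 and none passed.

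Fetal Acaca rose at doses where maternal Acaca was not called. The 5 controls had 136, 127, 135, 107 and 104 scaled CPM. The 3 dams at 1 mg/kg had 182, 240 and 216, the 4 at 3 mg/kg had 255, 298, 225 and 216, and the 4 at 10 mg/kg had 267, 313, 267 and 144. All 11 lay above every control. Acaca rose by 0.79, 1.01 and 1.00 (adjusted p = 0.0221, 0.000477 and 0.000268), which is 2.01-fold at 3 mg/kg. The 3 dams at 30 mg/kg had 131, 122 and 119, inside the control range, and the change was 0.01 (adjusted p = 0.985). The call at 1 mg/kg was lost without dam 2272, 2273, 2278 or 2280, with adjusted p up to 0.182. Within the second run of dams the values at 3 and 10 mg/kg were 1.04 (adjusted p = 0.131) and 0.95 (adjusted p = 0.107), neither called, and within the first run the value at 10 mg/kg was 1.11 and was called (adjusted p = 0.000216). It was 1.03 over all dams with the run as a covariate, and was called (adjusted p = 2.67e-05).

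With PFO4DA, fetal Acaca was 185, 258, 255 and 231 scaled CPM at 30 mg/kg and 273, 250, 259 and 277 at 62.5 mg/kg, against 129 to 204 with a median of 160 in 6 controls. At 62.5 mg/kg the groups did not overlap. The changes were 0.55 (adjusted p = 0.0293) and 0.74 (adjusted p = 0.00134). The first was lost without dam 2295, 2307, 2310, 2317 or 2318, with adjusted p up to 0.108. It was also lost within the first run (0.59, adjusted p = 0.289) and within the second (0.54, adjusted p = 0.145). It was kept with the run of dams as a covariate (0.55, adjusted p = 0.0182). The value at 62.5 mg/kg was 0.65 within the second run (adjusted p = 0.0133). In maternal liver the 4 dams at 62.5 mg/kg had 130, 143, 135 and 151 and lay above all 6 controls, 88.4 to 119, but the change of 0.50 was not called over all genes (adjusted p = 0.243). It was called with that dose and its controls fitted alone (adjusted p = 0.0152) and within the second run (0.61, adjusted p = 0.0372).

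Fasn, fatty acid synthase, builds palmitate. In maternal liver its 5 PFO5DoA controls had 1.97, 1.72, 4.14, 2.02 and 0.883 scaled CPM. Dams 2285 to 2288 at 30 mg/kg had 0.381, 0.661, 0.200 and 0.0870, which rest on 4, 9, 2 and 1 counts and lie below every control. Fasn fell by 2.60 on the log2 scale (adjusted p = 0.000517), with a 95% interval of -3.71 to -1.48. It was -3.22 without dam 2286, and -2.02 within the second run of dams (adjusted p = 0.0292). At 10 mg/kg 3 dams had 4.61 to 4.93, above the highest control, and dam 2276 had 1.69. That change of 0.90 was not called (adjusted p = 0.154), and it was 1.28 and called without control dam 2265 (adjusted p = 0.0474).

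Fetal Fasn was 1.18, 0.685, 1.28, 1.28 and 0.984 scaled CPM in PFO5DoA controls and 4.45, 4.49, 2.14 and 1.69 at 3 mg/kg. The groups did not overlap, but the change of 1.53 missed the threshold (adjusted p = 0.0554), and it passed without dam 2268, 2277, 2282 or 2284 (adjusted p as low as 0.0197). It also passed with DESeq2 (adjusted p = 0.0241) and with the run of dams as a covariate (adjusted p = 0.0313). The same held with that dose and its controls alone (adjusted p = 0.0318) and with 0.1 mg/kg kept (adjusted p = 0.0499). It stayed uncalled without the filter on low counts, with another scaling and with the replicate number as a block. At 10 mg/kg the change was 1.21 (adjusted p = 0.101), also called without dam 2284 (1.56, adjusted p = 0.0192). Within the first run of dams both were called, at 2.06 (adjusted p = 0.0152) and 1.83 (adjusted p = 0.0179), and within the second the value at 10 mg/kg was 0.22 (adjusted p = 0.917). At 30 mg/kg the 3 dams had 0.989, 0.335 and 0.971 (change -0.52, adjusted p = 0.546). With PFO4DA, fetal Fasn was 3.91, 4.10, 2.92 and 2.33 at 30 mg/kg and 3.59, 4.32, 4.27 and 3.07 at 62.5 mg/kg, against 0.915 to 2.41 in controls. Fasn rose by 0.83 (adjusted p = 0.0427) and 1.03 (adjusted p = 0.00475). The call at 30 mg/kg was lost without dam 2294, 2306, 2307, 2308, 2309, 2310 or 2317, with adjusted p up to 0.136, and within each run of dams (0.86, adjusted p = 0.316, and 0.81, adjusted p = 0.343). That call was kept with the run of dams as a covariate (0.82, adjusted p = 0.0422).

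Srebf1 encodes SREBP-1, and its mRNA does not report the cleavage that activates the protein. With PFO5DoA its maternal changes ran from -0.51 to 0.29 and its fetal changes from -0.51 to 1.00. The largest, in fetal liver at 1 mg/kg, came from 84.4, 150.5 and 200.1 scaled CPM against 132, 63.4, 82.5, 40.3 and 43.1 in controls. It was not called (adjusted p = 0.158), and was 1.32 and called without control dam 2263 (adjusted p = 0.0388). With PFO4DA the maternal changes were -0.74 to -0.12. At 10 mg/kg the 4 dams had 59.5, 71.8, 61.1 and 55.7, all below the lowest of 6 controls at 75.6, with a change of -0.70 (adjusted p = 0.423). Fetal changes with PFO4DA were -0.72 to 0.66 and none passed. At 62.5 mg/kg the value was 0.66 (adjusted p = 0.255), and 0.95 within the second run of dams, where it was called (adjusted p = 0.00816).

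**Figure D3:**
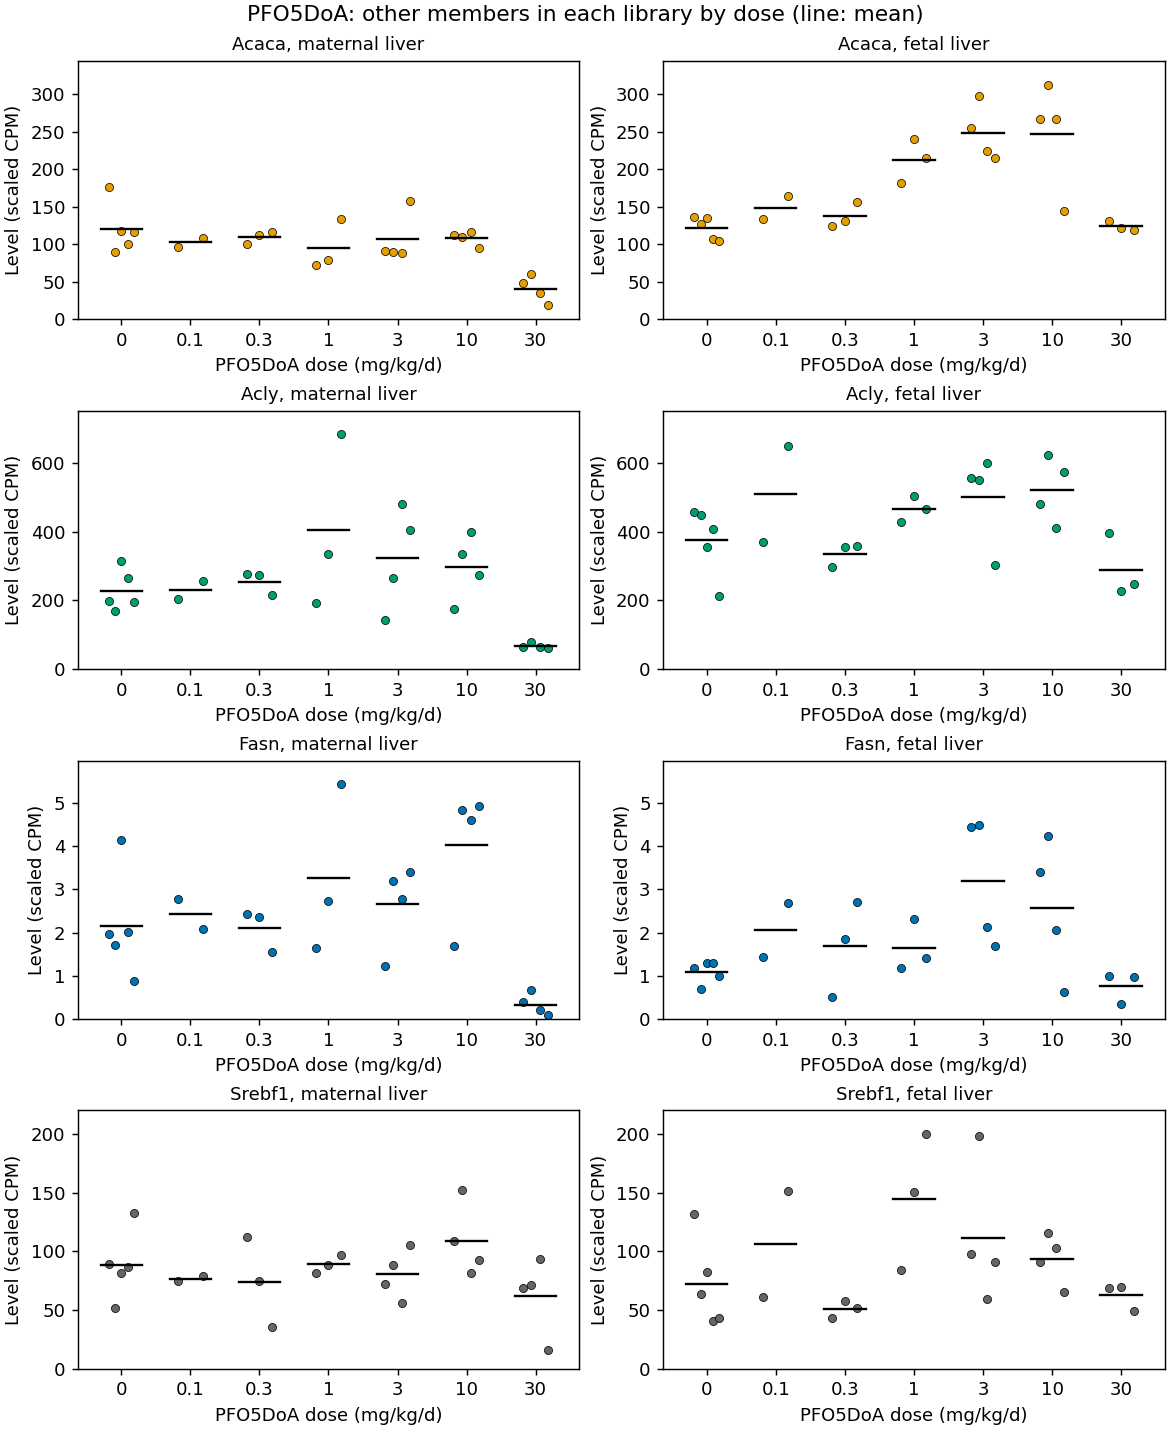
Levels of Acaca, Acly, Fasn and Srebf1 in scaled CPM on a linear axis from 0 (vertical) by PFO5DoA dose in mg/kg (horizontal) in maternal and fetal liver, with a point for each library and a line for the group mean. Maternal Acly, Acaca and Fasn at 30 mg/kg lie below every control library, and fetal Acaca from 1 to 10 mg/kg lies above every control library.

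The step from 10 to 30 mg/kg of PFO5DoA was compared directly, a contrast chosen after the values were seen. In maternal liver 3 of the 5 genes were called, against 7.3% of all genes. Fasn was lower at 30 than at 10 mg/kg by a log2 value of -3.49 (adjusted p = 0.000392), Acly by -2.14 (adjusted p = 0.00101) and Acaca by -1.39 (adjusted p = 0.00419). Scd was -1.14 (adjusted p = 0.114), and without dam 2286 it was -1.62 and was called (adjusted p = 0.0196). In fetal liver 2 of the 5 genes were called, against 4.54% of all genes. Fetal Scd was lower by -2.28 (adjusted p = 0.000332) and fetal Acaca by -1.0 (adjusted p = 0.00492). Fetal Acly was -0.85 (adjusted p = 0.0595) and called without dam 2280, 2282 or 2285 (adjusted p as low as 0.0233), and fetal Fasn was -1.73 (adjusted p = 0.0952) and called without dam 2284 (adjusted p = 0.014). Within the second run of dams, fetal Scd was -2.44 (adjusted p = 0.154), fetal Acaca -0.73 (adjusted p = 0.315) and maternal Acaca -1.36 (adjusted p = 0.0892). The maternal values of Fasn (-3.75, adjusted p = 0.00296) and Acly (-2.33, adjusted p = 0.000112) were called there. Over all dams with the run as a covariate, fetal Scd was -2.32, fetal Acaca -0.80 and maternal Acaca -1.41. All were called (adjusted p = 0.000658, 0.0136 and 0.00751).

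A slope on log2(dose + 1) was fitted over all tested doses, and its value is the log2 change per doubling of dose + 1. In fetal liver of PFO4DA dams all 5 genes had a called positive slope, against 18.9% of all genes called in either direction. The slopes were 0.51 for Scd (adjusted p = 5.57e-08), 0.19 for Fasn (adjusted p = 4.45e-05), 0.14 for Srebf1 (adjusted p = 0.0182), 0.13 for Acaca (adjusted p = 5.47e-06) and 0.09 for Acly (adjusted p = 0.000572). In maternal liver of PFO4DA dams Scd alone was called (0.30, adjusted p = 0.000155), against 2.8% of all genes. In maternal liver of PFO5DoA dams Scd rose (0.49, adjusted p = 0.0129) and Acaca fell (-0.21, adjusted p = 0.00684), with 42.2% of all genes called. The slope of maternal Acly was -0.25 (adjusted p = 0.0764), and it was called without dam 2277 or 2283 (adjusted p as low as 0.032). In fetal liver of PFO5DoA dams none of the 5 was called, against 36% of all genes, and the slope of Scd was 0.31 (adjusted p = 0.196). A straight slope describes that liver poorly, since Scd and Acaca were high from 1 to 10 and low at 30 mg/kg. Leaving out 30 mg/kg, a setting chosen after the values were seen, called 3 of the 5 genes in fetal liver, against 17.6% of all genes. They were Scd (0.79, adjusted p = 0.00035), Acaca (0.32, adjusted p = 0.000617) and Acly (0.17, adjusted p = 0.0406). In maternal liver the same setting called 1 of the 5, Scd, against 17.6% of all genes, and the call of Acaca was lost (-0.03, adjusted p = 0.707).

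The homologues were compared at their 5 shared doses as the PFO5DoA change minus the PFO4DA change, each against its own controls, in 50 tests over 5 genes and 2 livers. In maternal liver 6 of 25 tests were called, while 0%, 0.128%, 0.804%, 8.55% and 20% of all genes were called from 0.3 to 30 mg/kg. At 0.3 mg/kg 710 of 10951 genes had an unadjusted p under 0.05. Maternal Scd rose more with PFO5DoA at 1 mg/kg (2.7, 95% interval 1.47 to 3.93, adjusted p = 0.04996), at 3 mg/kg (2.73, 1.54 to 3.92, adjusted p = 0.00805) and at 10 mg/kg (2.61, 1.42 to 3.80, adjusted p = 0.00403). The call at 1 mg/kg held in 14 of 53 fits that each left out 1 library. The Scd difference at 30 mg/kg was 1.21 (interval 0.04 to 2.38) and was not called (adjusted p = 0.138).

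The other enzymes of maternal liver were lower with PFO5DoA than with PFO4DA at 30 mg/kg. The difference was -2.42 for Fasn (interval -3.68 to -1.15, adjusted p = 0.00441), -1.42 for Acaca (-2.11 to -0.74, adjusted p = 0.00225) and -1.61 for Acly (-2.48 to -0.75, adjusted p = 0.00576). Here the PFO5DoA dams all belong to the second run of their chemical, and the PFO4DA dams to both runs of theirs. Srebf1 differed by -0.33 at that dose with an interval of -1.22 to 0.56 (adjusted p = 0.649). Its maternal difference at 10 mg/kg was 1.01 (interval 0.12 to 1.90, adjusted p = 0.146).

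In fetal liver 3 of 25 tests were called, while 0.00852%, 0.707%, 1.56%, 4.07% and 13.6% of all genes were called. Scd at 30 mg/kg was lower with PFO5DoA by -2.34 (interval -3.46 to -1.22, adjusted p = 0.0026), and Acly by -0.92 (-1.48 to -0.36, adjusted p = 0.0201). The Acly call was lost without dam 2287, 2288 or 2307 and with the run of dams as a covariate (adjusted p = 0.0815). Fetal Acaca at 10 mg/kg was higher with PFO5DoA by 0.79 (0.31 to 1.27, adjusted p = 0.0479), a call that held in 24 of 52 fits without 1 library. At 1 and 3 mg/kg it was 0.87 (adjusted p = 0.0846) and 0.82 (adjusted p = 0.0665). The first was called without dam 2284 (adjusted p = 0.0377), the second without dam 2284, 2295 or 2315 (adjusted p as low as 0.00955). Fetal Scd at 1 and 3 mg/kg differed by 1.97 (interval 0.87 to 3.06, adjusted p = 0.0712) and 1.17 (0.12 to 2.22, adjusted p = 0.348), of which the first was called without dam 2271 or 2316 (adjusted p as low as 0.0381). At 10 mg/kg it differed by 0.31, with an interval of -0.73 to 1.35 that allows either sign (adjusted p = 0.839).

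**Figure D4:**
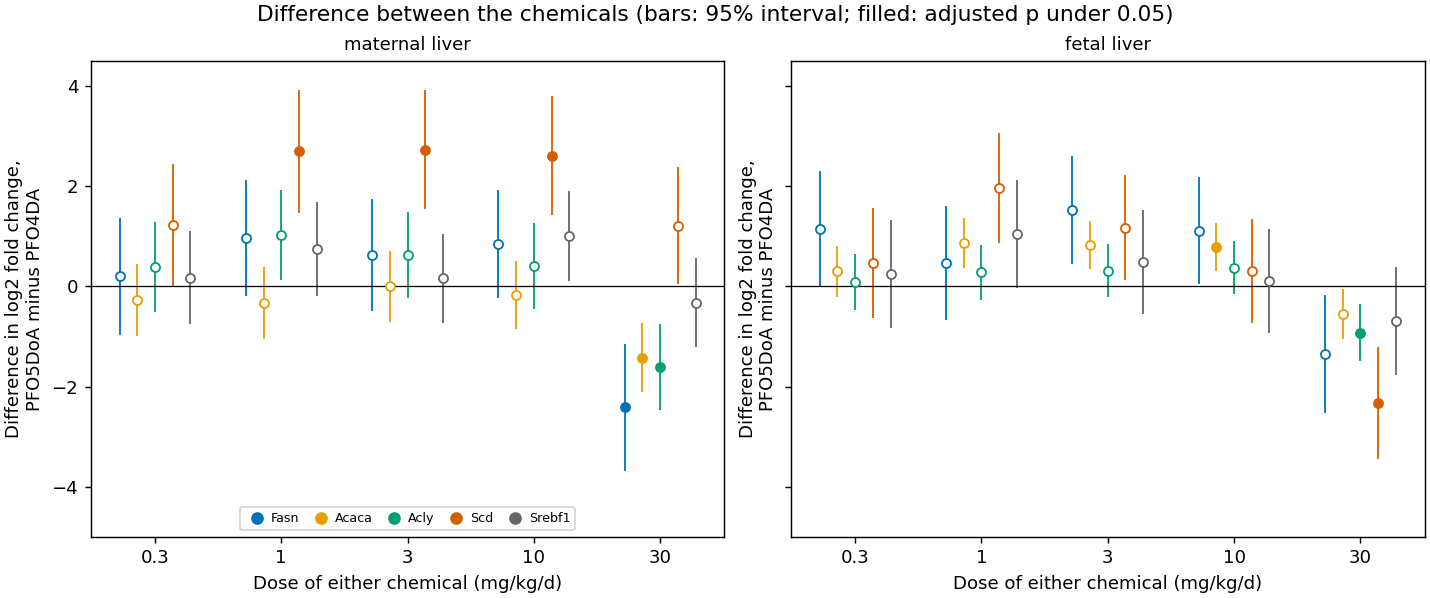
PFO5DoA change minus PFO4DA change in log2 units with its 95% interval (vertical axis) for each gene at the 5 shared doses in mg/kg (horizontal axis), in maternal and fetal liver, with filled points for called tests. Maternal Scd lies above 2 from 1 to 10 mg/kg, and maternal Fasn, Acaca and Acly lie below -1 at 30 mg/kg.

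Whether a dose changed a gene differently in fetal and maternal liver was tested with the dam as a block. For PFO5DoA 4 of 25 tests were called, while 0%, 0.117%, 1.19%, 4.77% and 15.1% of all genes were called from 0.3 to 30 mg/kg. At 0.3 mg/kg 365 of 11968 genes had an unadjusted p under 0.05. The fetal minus maternal difference of Acaca was 1.21 at 3 mg/kg (adjusted p = 0.0326), 1.07 at 10 mg/kg (adjusted p = 0.0265) and 1.86 at 30 mg/kg (adjusted p = 0.00027). At 1 mg/kg it was 1.15 (adjusted p = 0.145), and it was called without control dam 2264 (adjusted p = 0.0246). Acly differed by 1.40 at 30 mg/kg (adjusted p = 0.0377). The call of Acaca at 3 mg/kg was lost without dam 2263, 2265 or 2275, that at 10 mg/kg without dam 2263 or 2283, and that of Acly without dam 2265, 2278 or 2285, among the 10 dams that were left out in turn. Adjusted p reached 0.146, 0.0794 and 0.142.

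At 30 mg/kg PFO5DoA, Fasn differed by 2.61 with an interval of 0.48 to 4.74 (adjusted p = 0.0903) and Scd by -1.23 with an interval of -2.14 to -0.32 (adjusted p = 0.0603). Among the dams left out in turn, Fasn was called without dam 2284 (adjusted p = 0.0495) and Scd without dam 2268 or 2278 (adjusted p as low as 0.0408). For PFO4DA none of 30 tests was called, and the shares of all genes from 0.3 to 62.5 mg/kg were 0%, 0%, 0.00861%, 0.5%, 1.02% and 2.81%. At 0.3 and 1 mg/kg 1122 and 652 of 11610 genes had an unadjusted p under 0.05. The nearest was Scd, higher in fetal liver by 1.94 at 30 mg/kg (adjusted p = 0.0536) and by 1.81 at 10 mg/kg (adjusted p = 0.0988). The PFO4DA differences of Acaca at 3, 10 and 30 mg/kg were 0.36, 0.22 and 0.68, beside 1.21, 1.07 and 1.86 for PFO5DoA, and the 2 chemicals were not tested against each other on this measure.

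**Figure D5:**
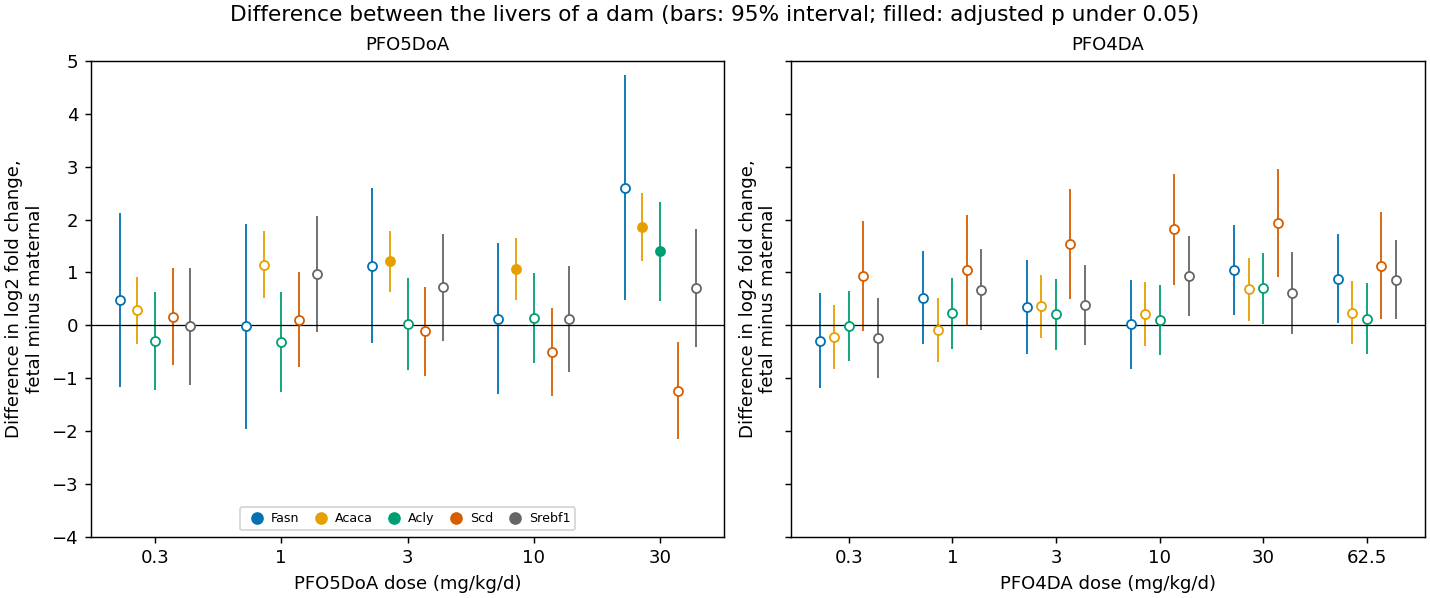
Fetal minus maternal dose effect in log2 units with its 95% interval (vertical axis) for each gene by dose in mg/kg (horizontal axis), for both chemicals, with filled points for called tests. Acaca lies near or above 1 from 1 to 30 mg/kg PFO5DoA, and at 30 mg/kg Scd lies below 0 while Acly, Acaca and Fasn lie above it.

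The genes moved together to different degrees. Across the 52 fetal libraries in the fits, the log2 level of each enzyme relative to its controls had a Pearson r of 0.70 to 0.83 with the mean of the other 3, and Srebf1 had 0.664 with the mean of the 4. Across the 53 maternal libraries these values were 0.750 for Fasn, 0.71 for Acly, 0.281 for Acaca, 0.132 for Scd and 0.458 for Srebf1. These are descriptions over libraries that share doses, controls and scaling. Ranked by their r with the mean of the 4 enzymes, ENSRNOG00000020480 and ENSRNOG00000022296 were among the 5 most alike of 11148 genes in fetal liver (0.940 and 0.874) and of 10222 genes in maternal liver (0.765 and 0.777). The files do not pair their identifiers with names.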

How the data were processed

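RNA of maternal and fetal liver was measured with TempO-Seq, in which pairs of detector oligonucleotides ligate on a target RNA and are counted; per the labels' protocols the panel held 22253 probes for 20924 genes. The authors deposited 1 table of estimated counts per chemical, not normalized. The tools listed in the submitters' processing notes, with no role for each, are R, DESeq2, STAR 2.7.8a and Partek, and the build is mRatBN7.2. Estimated counts were rounded to whole numbers. Groups came from the labels through the dam identifier in each column name, and the liver from the correlation described in the report.

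The model was edgeR 4.0.16's quasi-likelihood fit (R 4.3.3), robust, after filterByExpr by group, TMM scaling and estimateDisp, with 1 fit per chemical and liver over all tested doses. The chemical difference used both chemicals in 1 fit per liver, and the liver difference used dams with both libraries and the dam as a block. DESeq2 1.42.0 was an alternative, beside other filters, scalings, dose scales and left-out libraries. P-values were adjusted over all genes of a fit. The fits were also run on simulated counts with planted changes. Their outcome is not given here, so they give no measure of error for the calls.

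The 5 genes, the tests and the lists were chosen with earlier results of these data known. All 5 genes are named at every dose, and for likeness the rule takes the 5 genes per liver with the highest r, of which the 2 found in both livers are printed, since their identifiers have no name here. Lists of pathway genes and of cell type markers had been fixed by symbol. None was looked up, since 0 of 20311 identifiers matched a symbol in the tables used here. The liver of a library thus rests on the correlation that assigned it, without a separate check. The labels name separate dams, so replicates are animals.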

Additional observations from a re-analysis of the deposited data

Results flagged for a closer look

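Doses are daily. In groups of 4 to 10 libraries, 7 of 105 sets of values of the 5 genes had a library far from the others, measured as its gap to the nearest library relative to the whole range. Chance marks about 1 in 20 such groups. With PFO5DoA, dam 2276 had maternal Fasn of 1.69 scaled CPM at 10 mg/kg against 4.61 to 4.93 in the other dams. Dam 2282 at 3 mg/kg had maternal Acaca of 158 against 88.7 to 90.6, and fetal Acly of 303 against 549.5 to 600.5. With PFO4DA, dam 2315 at 3 mg/kg had maternal Acly of 133 against 262 to 288 and fetal Acaca of 253 against 152 to 163. Fetal Acly of dam 2303 at 10 mg/kg was 361 against 399 to 405.5, and fetal Srebf1 of dam 2307 at 30 mg/kg was 170 against 54.5 to 65.2.

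A test of the difference between the 2 chemicals was called in 9 cases, given as the PFO5DoA minus the PFO4DA log2 change. In maternal liver these were Scd at 1, 3 and 10 mg/kg (2.7, 2.73 and 2.61) and Fasn, Acaca and Acly at 30 mg/kg (-2.42, -1.42 and -1.61). In fetal liver they were Acaca at 10 mg/kg (0.79) and Acly and Scd at 30 mg/kg (-0.92 and -2.34). At 30 mg/kg 20% of all genes were called in maternal and 13.6% in fetal liver. With 1 library left out, maternal Scd at 1 mg/kg held in 14 of 53 fits and fetal Acaca in 24 of 52. Fetal Acly was lost with the run of dams as a covariate. The livers differed in 4 cases, all with PFO5DoA and given as fetal minus maternal log2 change. They were Acaca at 3, 10 and 30 mg/kg (1.21, 1.07 and 1.86) and Acly at 30 mg/kg (1.40). At 30 mg/kg 15.1% of all genes were called. The calls of Acaca at 3 and 10 mg/kg and of Acly were lost when single dams were left out.

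The 0.1 mg/kg PFO5DoA group of 2 dams entered no test. Its mean maternal Scd of 190 scaled CPM and its mean fetal Fasn of 2.06 came from libraries that all lay above the highest control.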

How the results depend on the processing

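Across all alternatives of the tests of single genes, 8086 values kept their side of the threshold. Another 149 lost and 77 gained a call in the same direction, and 3 that were not called changed sign and were called. Most of the 245 main tests were not called, and only called tests could lose a call. The share of calls lost among these was not computed. Of the 8086, 215 changed sign with neither value past the threshold. Summing the livers of each dam, which needs no assignment, gave these 3, for Acaca with PFO5DoA: -0.61 at 30 mg/kg (adjusted p = 0.00897) in place of the fetal value, and 0.54 at 10 (adjusted p = 0.0212) and 0.53 at 3 mg/kg (adjusted p = 0.0486) in place of the maternal ones. A summed value mixes both livers and was set against each liver in turn, so the quantities are unlike. Taken apart, the fetal and maternal values were 0.01 and -1.55 at 30 mg/kg, 1.00 and -0.16 at 10, and 1.01 and -0.17 at 3. The cause of the sign changes was not tested. Summing gave 10 calls for PFO5DoA (6 in fetal and 7 in maternal liver) and 3 for PFO4DA (8 and 1). With each dose and its controls fitted alone, PFO4DA calls were 5 in fetal and 2 in maternal liver. Without the filter on low counts the liver difference had 8 calls for each chemical, in place of 4 with PFO5DoA and 0 with PFO4DA. Scd with PFO4DA at 30 mg/kg then had 1.97 (adjusted p = 1.79e-12), beside 1.94 (adjusted p = 0.0536) with the filter. The cause was not tested. Shares of all genes called under the alternative settings are not given in this section. Its counts of calls therefore cannot be read as particular to the 5 genes. DESeq2 gave 6 calls of the fetal chemical difference in place of 3. The fetal PFO5DoA slope, with 0 calls, had 1 with DESeq2, 1 with the rank of the dose and 3 over doses of 0 to 10 mg/kg, where the maternal slope had 1 in place of 2.

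The replicate numbers in the sample titles were not taken to pair the samples. Levels on the log2 scale, less the mean of their dose group, were correlated over genes between libraries of different doses in a table and liver. Same-numbered libraries then had a median r of -0.0241 to 0.00964, though single fetal PFO4DA pairs reached 0.586. On this measure between 4 of 30 and 10 of 22 libraries correlated best with their own number, and the share due to chance was not computed. With that number as a replicate block, fetal PFO4DA calls went from 8 to 4 and maternal PFO4DA calls from 1 to 0, PFO5DoA calls were 6 in fetal and 6 in maternal liver, chemical differences 2 and 5, and slopes 5 and 1 for PFO4DA and 0 and 3 for PFO5DoA. Without the dam block the liver difference had 5 calls for PFO5DoA and 0 for PFO4DA. With the run of dams as a covariate, PFO5DoA calls were 7 in fetal and 7 in maternal liver, and PFO4DA calls 8 and 1. Chemical differences then had 3 calls in fetal and 5 in maternal liver.

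With 1 library left out, calls by dose ran from 5 to 8 (fetal PFO5DoA), 6 to 8 (maternal PFO5DoA), 5 to 9 (fetal PFO4DA) and 0 to 1 (maternal PFO4DA). Slopes ran from 0 to 0, 2 to 3, 5 to 5 and 1 to 1 in the same order, and chemical differences from 1 to 5 in fetal and 5 to 6 in maternal liver. For the liver difference not every dam was left out: a random 10 of 22 PFO5DoA dams gave 2 to 5 calls and 5 of 30 PFO4DA dams gave 0 to 0. Depth limits Fasn, with 1 to 53 counts per library.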
